A study of Erythranthe guttata with 80 samples.

Results

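GID1B, a DELLA gene and 2 genes annotated as PIF1 were followed through leaf and bud development in a coastal perennial and an inland annual line of Mimulus guttatus. They are 4 of the 28140 genes counted, with the identifiers Migut.N02128 (GID1B), Migut.H02266 (DELLA), Migut.M00105 (PIF1) and Migut.D00504 (PIF1). The symbols are those the study gives to these identifiers. The genes were chosen with the difference between the ecotypes at the 2leaf stage in view, where GID1B and both PIF1 genes differed and the DELLA gene did not. Values at 2leaf are therefore given as a description, without a test. All 4 genes passed the filter on low counts in the fits of 60, 50 and 80 libraries described below.

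The coastal perennial ecotype was represented by 1 inbred accession, SWB-4, taken at the stages 2leaf, 4leaf, 6leaf and 8leaf and as floral buds (bud), and the inland annual ecotype by 1 inbred accession, LMC-17, sampled at 2leaf, 4leaf and bud. There were 10 plants in each of these 8 groups and 1 tissue per plant, so 80 libraries in all, and line and ecotype cannot be told apart. No plant was treated, and all were grown in the same long-day chamber, leaf pairs being taken near full expansion and buds before the flowers opened. The assay, 3′-Tag-Seq, sequences only the 3′ end of a transcript, so counts were not divided by gene length.

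In flowering plants studied in detail, chiefly Arabidopsis and rice, gibberellin is bound by receptors of the GID1 family. The receptor with its hormone binds DELLA proteins, which restrain growth, and marks them for destruction. Among the proteins that DELLAs hold back in Arabidopsis are the PIFs, transcription factors that also bind phytochrome, the red-light receptor. PIF1 of Arabidopsis represses seed germination and chlorophyll synthesis in the dark. Much of this control acts on protein, whereas the values here are transcript counts. Gibberellin is also a known promoter of bolting and flowering in many rosette plants.

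Library totals ran from 1256776 to 6090402 counts (median 3839604), and levels below are counts per 1000000 counts (CPM) scaled by TMM, a correction for RNA composition. The tissue labels were set beside marker lists that the study drew from hub genes of these same libraries. It associates the modules of these leaf and bud hubs with the step from leaf to bud. The sums are therefore a description and no independent check of the labels. The summed level of 6 chloroplast genes was 2239 to 5715 CPM in leaves of the 6 leaf groups and 254.5 to 620.7 CPM in buds, and that of 4 bud genes of the cell wall and cell surface was 1.88 to 20.5 CPM in leaves and 196.4 to 3234 CPM in buds. Every marker was detected in each group. Each library was compared with the mean of the other 9 plants of its group across genes, and Pearson's r ran from 0.928 in Inland 4leaf plant 4 to 0.986. Fewer cells of a type and less RNA per cell cannot be told apart in such bulk tissue.

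GID1B, the receptor gene, was lower in the coastal perennial plants than in the inland annual plants wherever both were sampled. At 2leaf the lowest, median and highest levels were 5.17, 8.62 and 14.1 CPM in coastal plants and 12.9, 29.2 and 47.6 CPM in inland plants. At 4leaf they were 4.49, 6.87 and 9.495 CPM in coastal plants and 20.5, 29.1 and 39.2 CPM in inland plants. In buds they were 7.69, 11.9 and 12.7 CPM in coastal plants and 28.4, 35.9 and 54.3 CPM in inland plants. The coastal and inland plants did not overlap at 4leaf or in buds, and at 2leaf 9 of 10 coastal plants lay below every inland plant. Counts behind these values were 11 to 91 per coastal library and 38 to 273 per inland library at these stages.

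GID1B was also low at the further leaf stages of the coastal line. The lowest, median and highest levels were 3.63, 4.97 and 7.76 CPM at 6leaf, and at 8leaf they were 3.84, 5.82 and 8.28 CPM. Ordered by mean, GID1B stood at 37.8 ± 8.12 CPM in Inland bud, 28.9 ± 5.83 in Inland 4leaf, 28.2 ± 9.97 in Inland 2leaf, 10.8 ± 1.97 in Coast bud, 8.97 ± 2.68 in Coast 2leaf, 6.75 ± 1.57 in Coast 4leaf, 6.06 ± 1.56 in Coast 8leaf and 5.28 ± 1.35 in Coast 6leaf (SD, n = 10 each). Neighbours in this order lay within 1 SD of each other except at 2 steps, from Inland bud to Inland 4leaf and from Inland 2leaf to Coast bud. The second of these separated all inland groups from all coastal groups.

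The DELLA gene, which encodes a growth repressor on which the receptor acts, had a different pattern, with its lowest levels in the buds of both lines. At 4leaf its lowest, median and highest levels were 6.35, 13.6 and 21.2 CPM in coastal plants and 3.28, 6.74 and 16.2 CPM in inland plants, and 3 of 10 coastal plants lay above every inland plant. The highest inland plant was plant 4, the library least like its group, and without it the inland plants reached 10.73 CPM and 8 of 10 coastal plants lay above them all. At 2leaf the levels were 2.35, 7.95 and 12.5 CPM in coastal plants and 2.82, 8.20 and 13.6 CPM in inland plants, with nearly equal ranges. Coastal plants held 5.41, 11.3 and 16.9 CPM at 6leaf and 3.82, 7.83 and 17.6 CPM at 8leaf. In buds the gene was close to the detection limit, at 0.151, 1.36 and 1.957 CPM in coastal plants and 0, 0.802 and 1.38 CPM in inland plants.

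Bud libraries held only 1 to 14 DELLA counts in coastal plants (71 in all) and 0 to 9 in inland plants (34 in all). The 2 inland bud plants without a count could have held up to 1.29 and 1.75 CPM, taking 3 counts as the limit that a count of 0 allows (counting error only). The order by mean was Coast 4leaf (13.4 ± 4.64 CPM), Coast 6leaf (10.7 ± 4.31), Coast 8leaf (9.49 ± 4.25), Inland 2leaf (8.04 ± 3.25), Coast 2leaf (7.71 ± 2.93), Inland 4leaf (7.52 ± 4.14), Coast bud (1.13 ± 0.622) and Inland bud (0.728 ± 0.460). Only the step from Inland 4leaf to Coast bud was larger than the SD of both neighbours. No bud of either line reached the lowest leaf of its own line at 4leaf.

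**Figure D1:**
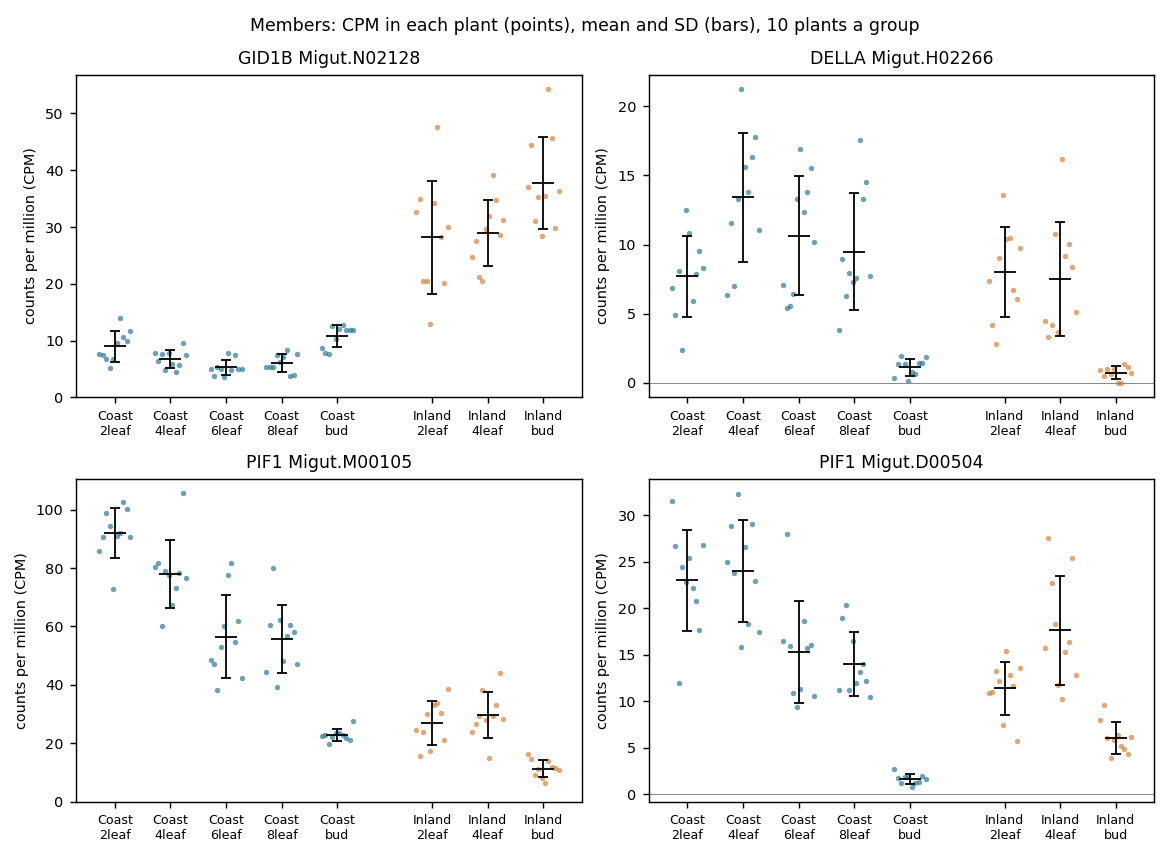
Level of each of the 4 genes in CPM (vertical axes, linear) in every plant, by group, coastal groups on the left and inland groups on the right. Points are plants, and bars the mean and SD of 10 plants. GID1B is low in all 5 coastal groups, the DELLA gene is near 0 in both bud groups, PIF1 Migut.M00105 is highest in Coast 2leaf (mean 91.98 CPM), and PIF1 Migut.D00504 is lowest in Coast bud (mean 1.63 CPM).

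PIF1 Migut.M00105 was higher in the coastal plants at all 3 shared stages, with no overlap at any of them. At 2leaf the lowest, median and highest levels were 72.7, 91.6 and 102.6 CPM in coastal plants and 15.5, 27.3 and 38.5 CPM in inland plants. At 4leaf they were 60.1, 78.1 and 105.6 CPM in coastal plants and 15.1, 28.7 and 44.1 CPM in inland plants. In buds they were 19.7, 22.7 and 27.8 CPM in coastal plants and 6.40, 11.4 and 16.2 CPM in inland plants. Coastal plants stood at 38.2, 53.7 and 81.7 CPM at 6leaf and at 39.3, 57.4 and 79.9 CPM at 8leaf.

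Means of this PIF1 gene were ordered Coast 2leaf (91.98 ± 8.50 CPM), Coast 4leaf (77.98 ± 11.8), Coast 6leaf (56.5 ± 14.3), Coast 8leaf (55.7 ± 11.6), Inland 4leaf (29.6 ± 7.86), Inland 2leaf (26.8 ± 7.54), Coast bud (22.8 ± 2.11) and Inland bud (11.4 ± 2.97). Coast 6leaf and Coast 8leaf were within 1 SD of each other, as were Inland 4leaf, Inland 2leaf and Coast bud in turn. The other steps were larger than both SDs.

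PIF1 Migut.D00504 behaved differently from the first PIF1 gene in buds, where the coastal plants were the lower ones. Bud levels (lowest, median and highest) were 0.781, 1.71 and 2.70 CPM in coastal plants and 3.95, 5.95 and 9.55 CPM in inland plants, without overlap. At 4leaf the levels were 15.8, 24.4 and 32.3 CPM in coastal plants and 10.3, 16.1 and 27.5 CPM in inland plants, and only 3 coastal plants exceeded all inland plants. At 2leaf they were 12.0, 23.7 and 31.6 CPM in coastal plants and 5.68, 11.9 and 15.4 CPM in inland plants, with 9 of 10 coastal plants above all inland plants. At the 2 leaf stages that both lines share the coastal plants were thus the higher ones by mean, and in buds the lower ones.

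At 6leaf and 8leaf, coastal plants had 9.37, 15.8 and 27.97 CPM and 10.4, 12.7 and 20.3 CPM of Migut.D00504 (lowest, median and highest), and 5 of 10 plants at 6leaf and 7 of 10 at 8leaf lay below every plant at 4leaf. The order of the means was Coast 4leaf (24.02 ± 5.48 CPM), Coast 2leaf (23.03 ± 5.42), Inland 4leaf (17.6 ± 5.84), Coast 6leaf (15.3 ± 5.45), Coast 8leaf (13.99 ± 3.43), Inland 2leaf (11.4 ± 2.89), Inland bud (6.03 ± 1.70) and Coast bud (1.63 ± 0.533). The first 6 groups formed a chain of neighbours within 1 SD, and the steps to Inland bud and to Coast bud exceeded it. Coastal buds held 4 to 16 counts of this gene and inland buds 11 to 53.

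The ecotypes were then compared with edgeR's quasi-likelihood test on 60 libraries (2leaf, 4leaf and bud), with log2 fold changes of coastal over inland plants. A gene is called where its p-value, adjusted by Benjamini-Hochberg over all 16735 genes tested, is under 0.05. The 2leaf difference that chose the genes uses other plants than those at 4leaf and in buds, although results of those stages were also known by then. At 4leaf all 4 genes were called, where 57.5% of all genes tested were called, and 3 of them were higher (28.6% of all genes) and 1 lower (28.8%) in coastal plants. In buds 1 was higher and 2 were lower in coastal plants, against 31.4% of all genes higher and 32.7% lower. With so many genes called, these counts alone say little about the 4 genes. The summed level of 6 dividing-cell genes also differed between the lines at 4leaf, with lowest, median and highest values of 168.5, 336.2 and 561.1 CPM in coastal plants and 43.41, 87.56 and 501.0 CPM in inland plants, all 6 being detected in both groups, whereas the median chloroplast sum was 3795 CPM in Coast 4leaf and 3861 CPM in Inland 4leaf. Their part in the differences at 4leaf was not tested.

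GID1B was lower in coastal plants at 4leaf, with a log2 fold change of -2.08 (SE 0.171, edgeR adjusted p = 3.21e-16), and in buds, with one of -1.83 (SE 0.158, adjusted p = 1.64e-15). These are 4.22-fold and 3.57-fold differences. A larger absolute change was found in 9.47% of the genes tested at 4leaf and in 11.2% in buds. Within the 4 library pools, each of which held 2 or 3 plants of every group, the difference ran from -2.64 to -1.71 at 4leaf and from -2.16 to -1.47 in buds. The description at 2leaf was a log2 fold change of -1.64, at a stage where 50.2% of all genes were called.

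For PIF1 Migut.M00105 the coastal plants were higher by 1.40 on the log2 scale at 4leaf (SE 0.132, edgeR adjusted p = 4.53e-14) and by 0.97 in buds (SE 0.138, adjusted p = 1.53e-08), beside 1.80 at 2leaf as a description. Pool values were all positive, from 1.203 to 1.609 at 4leaf and from 0.81 to 1.27 in buds. PIF1 Migut.D00504 was higher in coastal plants by 0.44 at 4leaf (SE 0.166, adjusted p = 0.0199), beside 1.03 at 2leaf as a description. Its values within pools 1 to 4 at 4leaf were 0.23, 0.21, 0.99 and 0.14, so only pool 3 lay above the value from all plants, and with library pool as a term the difference was 0.41 (adjusted p = 0.0201). In buds it was lower in coastal plants, with a log2 fold change of -1.89 (SE 0.207, adjusted p = 7.72e-12), a 3.69-fold difference, and its pool values ran from -2.33 to -1.66.

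The DELLA gene was higher in coastal plants by 0.84 at 4leaf (SE 0.271, edgeR adjusted p = 0.0066), with pool values from 0.65 to 1.22. In buds the difference of 0.46 did not pass the test (SE 0.398, adjusted p = 0.312), and its 95% interval ran from -0.32 to 1.24. At 2leaf the value was -0.034. DELLA levels also moved with library pool. In the 15 leaf libraries of pool 1 the mean deviation of the gene from its group mean was -0.58 on the log2 scale, and pool 1 gave the lowest mean in 5 of 6 leaf groups, whereas in the 16 leaf libraries of pool 3 the mean deviation was 0.36. With library pool as a term in the model the difference at 4leaf was 0.91 (adjusted p = 0.00119), and it was positive in 4 of 4 pools.

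**Figure D2:**
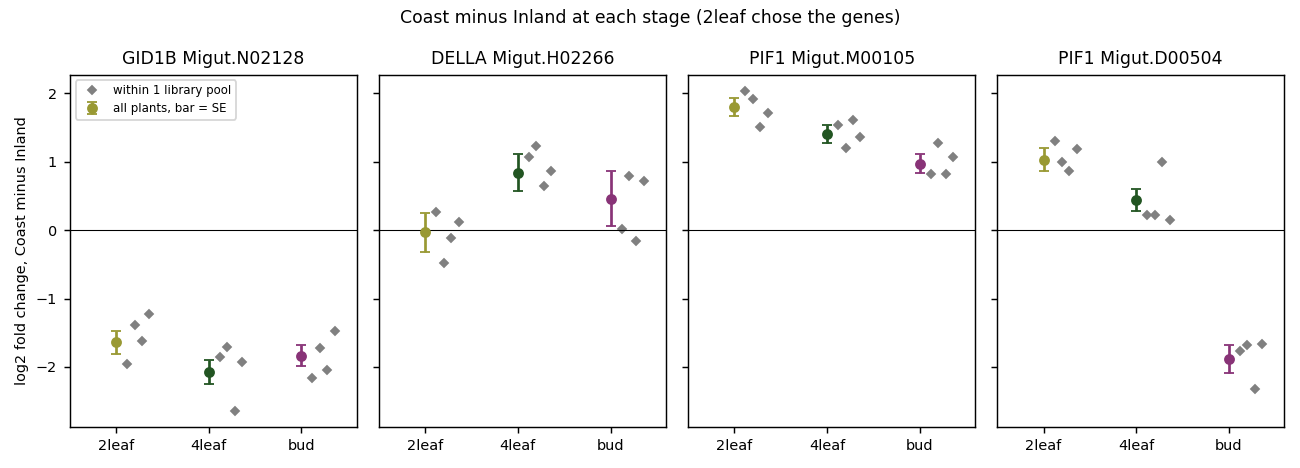
Log2 fold change of coastal over inland plants (vertical axis) at 2leaf, 4leaf and bud for the 4 genes. Circles with bars are the value from all plants and its SE, and grey diamonds the values within each of the 4 library pools. GID1B is below 0 throughout, PIF1 Migut.M00105 above 0 throughout, and PIF1 Migut.D00504 is above 0 in leaves (0.44 at 4leaf) and at -1.89 in buds. The 2leaf values chose the genes.

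Bud and leaf were next compared within each line. From 4leaf to bud, GID1B was the only member with a higher level in buds, and the DELLA gene and both PIF1 genes were lower in buds of both lines. All 4 were called in coastal plants, where 68.3% of all genes were called, and all 4 in inland plants, against 69.2%. Results in buds were among those known when the genes were chosen, so these calls are not independent of the choice.

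In coastal plants, GID1B was higher in buds by 0.69 on the log2 scale (SE 0.171, edgeR adjusted p = 0.000329), with 7 of 10 buds above every 4leaf plant. In inland plants it was higher in buds by 0.45 (SE 0.154, adjusted p = 0.00847), with 3 of 10 buds above every 4leaf plant, and this call was lost with upper-quartile scaling (0.27, adjusted p = 0.111). With library size alone as the scaling the median of all genes shifted to 0.81 in coastal and 0.72 in inland plants, against 0.11 and 0.10 with TMM, and GID1B stood at 1.40 and 1.04. Its rise relative to the median gene was thus 0.58 and 0.35 with TMM, and 0.59 and 0.32 with library size alone.

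The DELLA gene had a log2 fold change of bud over 4leaf of -3.48 in coastal plants (SE 0.308, edgeR adjusted p = 1.34e-15) and of -3.10 in inland plants (SE 0.355, adjusted p = 1.34e-11). PIF1 Migut.M00105 had -1.74 in coastal plants (SE 0.131, adjusted p = 1.4e-18) and -1.31 in inland plants (SE 0.141, adjusted p = 1.51e-12). PIF1 Migut.D00504 had a change of -3.81 in coastal plants (SE 0.197, adjusted p = 6.74e-26), a 14.0-fold difference that 7.16% of the genes tested exceeded. It was the largest value of the 4 genes there, but its 95% interval (-4.19 to -3.42) overlapped that of the DELLA gene (-4.08 to -2.87). In inland plants PIF1 Migut.D00504 had -1.48 (SE 0.180, adjusted p = 8.55e-11), a 2.80-fold difference, and the DELLA gene changed most. The chloroplast marker sum had medians of 471.5 CPM in coastal buds and 300.3 CPM in inland buds, and the sum of the 4 bud genes medians of 557.3 CPM in coastal buds and 1959 CPM in inland buds. Their part in the bud values was not tested.

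Whether the step from 4leaf to bud differed between the lines was tested as an interaction, for which 32.5% of all genes were called. Of the 4 members 1 was called, PIF1 Migut.D00504, whose change in coastal plants minus that in inland plants was -2.32 on the log2 scale (SE 0.265, edgeR adjusted p = 2.33e-10), with pool values from -3.32 to -1.81. A larger absolute interaction was found in 5.88% of the genes tested. The other PIF1 gene had an interaction of -0.43 (95% interval -0.81 to -0.061, adjusted p = 0.072), GID1B of 0.24 (-0.20 to 0.69, adjusted p = 0.441) and the DELLA gene of -0.38 (-1.38 to 0.63, adjusted p = 0.609), and none of these 3 passed the test.

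**Figure D3:**
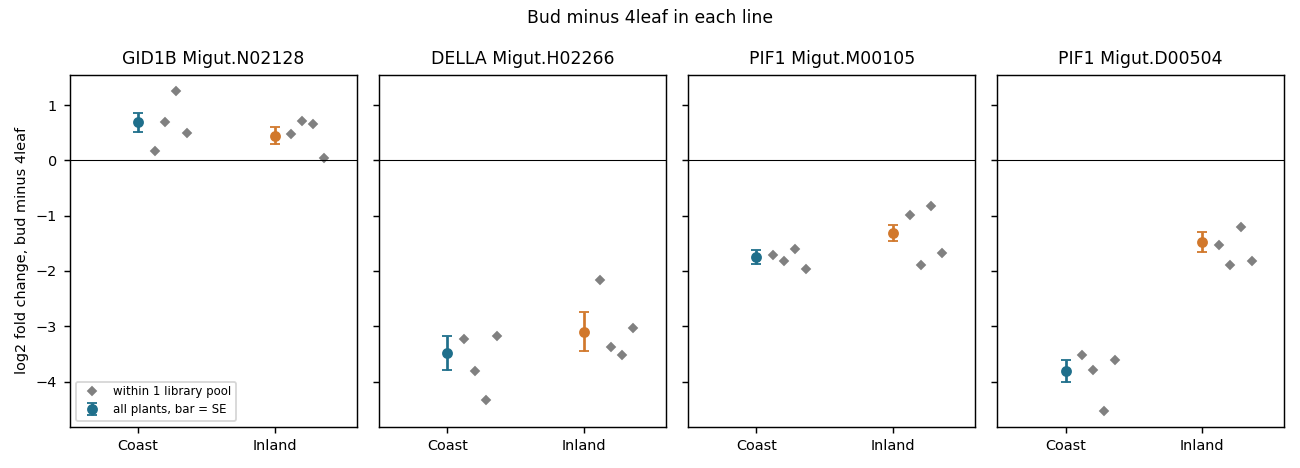
Log2 fold change of bud over 4leaf (vertical axis) in coastal and inland plants for the 4 genes. Circles with bars are the value from all plants and its SE, and grey diamonds the values within each library pool. GID1B is above 0 in both lines (0.69 and 0.45), and PIF1 Migut.D00504 shows the widest gap between the lines (-3.81 in coastal and -1.48 in inland plants).

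Between 2leaf and 4leaf the values are a description, without a test, since the 2leaf plants chose the genes. In inland plants PIF1 Migut.D00504 had the largest log2 fold change of 4leaf over 2leaf among the members, 0.64, with pool values from -0.11 to 1.08, and the other PIF1 gene had 0.14, GID1B 0.038 and the DELLA gene -0.11. In coastal plants the DELLA gene had 0.76, with pool values from 0.49 to 1.11, GID1B had -0.40, PIF1 Migut.M00105 -0.25 and PIF1 Migut.D00504 0.049. The GID1B values within pools ran from -1.16 to 0.0098 in coastal plants.

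The coastal line alone was sampled at 6leaf and 8leaf, and its 50 libraries were fitted together, with 15976 genes tested. From 4leaf to 6leaf both PIF1 genes fell and neither GID1B nor the DELLA gene passed the test, so 2 of 4 were called against 14.7% of all genes. Migut.M00105 changed by -0.48 (SE 0.111, edgeR adjusted p = 0.00261) and Migut.D00504 by -0.66 (SE 0.164, adjusted p = 0.00514). Pool values ran from -0.80 to 0.0018 for Migut.M00105, so 1 pool showed no fall, and from -0.90 to -0.22 for Migut.D00504. The other 2 genes had changes of -0.38 for GID1B (95% interval -0.71 to -0.053, adjusted p = 0.116) and -0.35 for the DELLA gene (-0.84 to 0.14, adjusted p = 0.378).

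From 6leaf to 8leaf 0 of 4 were called with edgeR, DESeq2 or voom with limma, where edgeR called 0.676% of all genes, and none had an unadjusted p under 0.05. From 4leaf to 8leaf 2 of 4 were called (27.7% of all genes), Migut.M00105 with a change of -0.50 (SE 0.111, edgeR adjusted p = 0.000514) and Migut.D00504 with one of -0.78 (SE 0.165, adjusted p = 0.000239). The change of Migut.M00105 was -0.22 and not called with library size alone (adjusted p = 0.077), a scaling under which the median gene rose by 0.30. Over the same leaves the summed level of 6 dividing-cell genes had medians of 336.2 CPM at 4leaf, 661.7 CPM at 6leaf and 695.9 CPM at 8leaf, and the chloroplast sum medians of 3795, 3428 and 2785 CPM. Their part in the PIF1 values was not tested.

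Coastal buds set against 8leaf, the last leaf stage before them, gave 4 of 4 genes called (73.8% of all genes). GID1B was higher in buds by 0.88 (SE 0.154, edgeR adjusted p = 1.47e-06), and the DELLA gene was lower, at -2.93 (SE 0.306, adjusted p = 2.44e-12). PIF1 Migut.M00105 was lower at -1.23 (SE 0.114, adjusted p = 4.8e-14) and Migut.D00504 at -3.00 (SE 0.201, adjusted p = 2.94e-19). Buds and 8leaf plants did not overlap for the last 3 genes, and 8 of 10 buds exceeded every 8leaf plant for GID1B.

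Coastal plants at 8leaf and inland plants at 4leaf are the last leaf stage sampled in each line, and were compared in a fit of all 80 libraries with 17136 genes tested. Here 2 of 4 genes were called, against 66.1% of all genes. GID1B was lower in the coastal leaves, at -2.24 (SE 0.164, edgeR adjusted p = 9.86e-21), and PIF1 Migut.M00105 was higher by 0.91 (SE 0.135, adjusted p = 1.06e-08). PIF1 Migut.D00504 had a value of -0.34 (95% interval -0.68 to -0.0037, adjusted p = 0.0745) and the DELLA gene of 0.32 (-0.21 to 0.86, adjusted p = 0.298). The dividing-cell sum was 531.3 to 1132 CPM (median 695.9) in these coastal leaves and 43.41 to 501.0 CPM (median 87.56) in the inland leaves, and the chloroplast sum had medians of 2785 CPM in coastal and 3861 CPM in inland leaves. Their part in these differences was not tested.

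Ratios of 2 genes within a plant do not depend on how libraries are scaled, and were used to compare groups only. For each plant the log2 ratio of GID1B to DELLA counts was taken, with 0.5 added to each count. Its lowest, median and highest values at 4leaf were -1.59, -1.14 and 0.31 in coastal plants and 0.92, 2.19 and 3.02 in inland plants, without overlap. In buds they were 1.94, 3.05 and 5.51 in coastal plants and 4.62, 5.33 and 7.98 in inland plants, where low DELLA counts make single values imprecise. Summed over 10 plants, there were 9.25 GID1B counts per DELLA count in coastal buds and 43.2 in inland buds, and 0.533 and 3.92 at 4leaf.

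Between the PIF1 genes, the log2 ratio of Migut.M00105 to Migut.D00504 averaged 2.03 ± 0.468 in Coast 2leaf, 1.72 ± 0.397 in Coast 4leaf, 1.91 ± 0.614 in Coast 6leaf and 1.99 ± 0.169 in Coast 8leaf, and no 2 of these leaf means lay farther apart than the larger of their SDs. It was 3.79 ± 0.475 in coastal buds. Inland plants had 1.22 ± 0.373 at 2leaf, 0.76 ± 0.398 at 4leaf and 0.90 ± 0.490 in buds (SD, n = 10 each). Of the plants in the other 7 groups only 1, in Coast 2leaf (3.04), exceeded the lowest coastal bud (3.03).

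**Figure D4:**
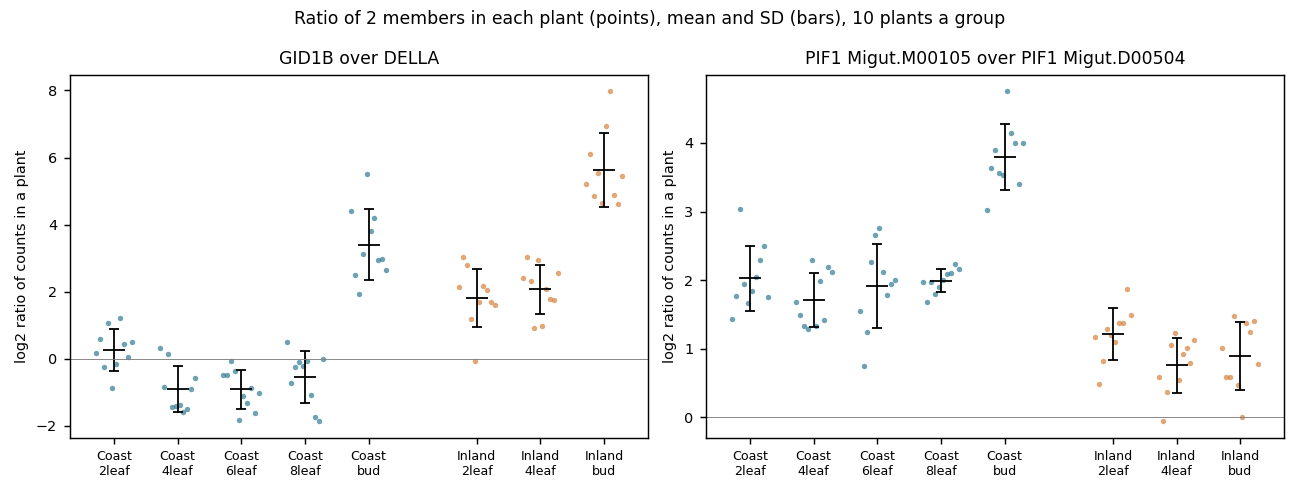
Log2 ratio of the counts of 2 genes in each plant (vertical axes), GID1B over DELLA on the left and PIF1 Migut.M00105 over PIF1 Migut.D00504 on the right, by group. Points are plants, and bars the mean and SD of 10 plants. The GID1B to DELLA ratio is higher in inland than in coastal plants at 4leaf and highest in buds, and the PIF1 ratio is raised in coastal buds (mean 3.79) but not in inland buds (mean 0.90).

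Other genes of the gibberellin pathway were taken from those the study names, which it picked on these same samples. GA20ox1 (Migut.F00399) and GA3ox1 (Migut.I00834) encode enzymes of the last steps of gibberellin synthesis, GA2ox8 (Migut.H01552) an enzyme of a family that inactivates gibberellins, and Migut.E01377 is annotated as a gibberellin response gene. The enzyme genes were picked for differing between the ecotypes. The study lists Migut.E01377 as a hub of a module of genes that, it says, appears to capture mainly differences between leaf and bud. Counts of these genes are therefore not independent evidence, between the ecotypes or from leaf to bud. At 4leaf 2 of these 4 were higher in coastal plants, GA20ox1 and GA3ox1 (28.6% of all genes were higher), and 1 was lower, GA2ox8 (28.8%). In buds 2 were higher, GA20ox1 and Migut.E01377 (31.4% of all genes), and 1 was lower, GA2ox8 (32.7%). Their median log2 fold change was 0.54 at 4leaf and 1.31 in buds, where the medians of all genes tested were -0.0099 and -0.0088. These medians span opposite directions and do not show a common shift. Single values ran from -2.43 (GA2ox8) to 4.92 (GA3ox1) at 4leaf, and from -0.69 (GA2ox8) to 4.11 (Migut.E01377) in buds.

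GA20ox1 had lowest, median and highest levels of 22.1, 50.4 and 241.9 CPM in coastal plants and 8.82, 15.3 and 24.5 CPM in inland plants at 4leaf, a log2 fold change of 2.26 (SE 0.293, edgeR adjusted p = 1.41e-09). In buds it was at 2.10, 4.26 and 13.4 CPM in coastal plants and 0.222, 0.852 and 1.29 CPM in inland plants, a log2 fold change of 2.58 (SE 0.447, adjusted p = 1.24e-06). GA3ox1 was at 17.7, 45.5 and 73.98 CPM in coastal plants and 0, 1.16 and 5.57 CPM in inland plants at 4leaf, 30.2-fold apart (log2 4.92, SE 0.344, adjusted p = 3.61e-19). Both synthesis genes were thus higher where GID1B was lower, in the coastal leaves. In buds GA3ox1 had 0.810, 2.46 and 3.98 CPM in coastal plants and 0.912, 2.42 and 3.58 CPM in inland plants, and its log2 fold change of 0.044 did not pass the test (95% interval -0.66 to 0.75, adjusted p = 0.925).

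GA2ox8 was lower in coastal plants, like GID1B. Its levels at 4leaf were 0.4927, 2.21 and 4.69 CPM in coastal plants and 2.21, 11.1 and 34.3 CPM in inland plants, a log2 fold change of -2.43 (SE 0.333, edgeR adjusted p = 6.48e-09). In buds they were 5.30, 9.52 and 11.5 CPM in coastal plants and 7.05, 13.2 and 21.5 CPM in inland plants, with a log2 fold change of -0.69 (SE 0.285, adjusted p = 0.0319) that was not called with upper-quartile scaling, library size alone, the fit of 80 libraries or without the shallowest Inland bud library. Migut.E01377 had few counts in leaves, and stood at 28.7, 128.7 and 305.1 CPM in coastal buds and 1.33, 5.74 and 22.8 CPM in inland buds. It was higher in coastal buds by 4.11 (SE 0.358, adjusted p = 2.46e-15), and in leaves its highest level was 6.25 CPM, in Inland 4leaf plant 4.

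From 4leaf to bud, the interaction was called for 3 of these 4 genes, GA3ox1, GA2ox8 and Migut.E01377, against 32.5% of all genes. GA3ox1 changed by -4.25 in coastal plants (SE 0.298, edgeR adjusted p = 7.32e-20) and had a change of 0.62 in inland plants that did not pass the test (adjusted p = 0.2), where its level was low already at 4leaf. At Inland 2leaf its lowest, median and highest levels were higher, at 5.45, 10.0 and 16.2 CPM (a description, without a test). The interaction thus depends on 4leaf as the leaf reference. From 8leaf to bud the change of GA3ox1 in coastal plants was -2.67 (SE 0.325, edgeR adjusted p = 2.48e-10). GA20ox1 was lower in buds of both lines, at -3.84 in coastal plants (SE 0.313, adjusted p = 5.05e-17) and -4.15 in inland plants (SE 0.426, adjusted p = 3.16e-13). GA2ox8 was higher in coastal buds by 1.74 (SE 0.330, adjusted p = 5.06e-06), and in inland plants its change was -0.0038 (adjusted p = 0.992). Along the coastal leaf stages GA3ox1 was lower at 8leaf than at 4leaf, at -1.57 (SE 0.272, adjusted p = 1.48e-05), in the same interval as the PIF1 genes, and GA20ox1 did not pass the test (-0.38, adjusted p = 0.444).

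**Figure D5:**
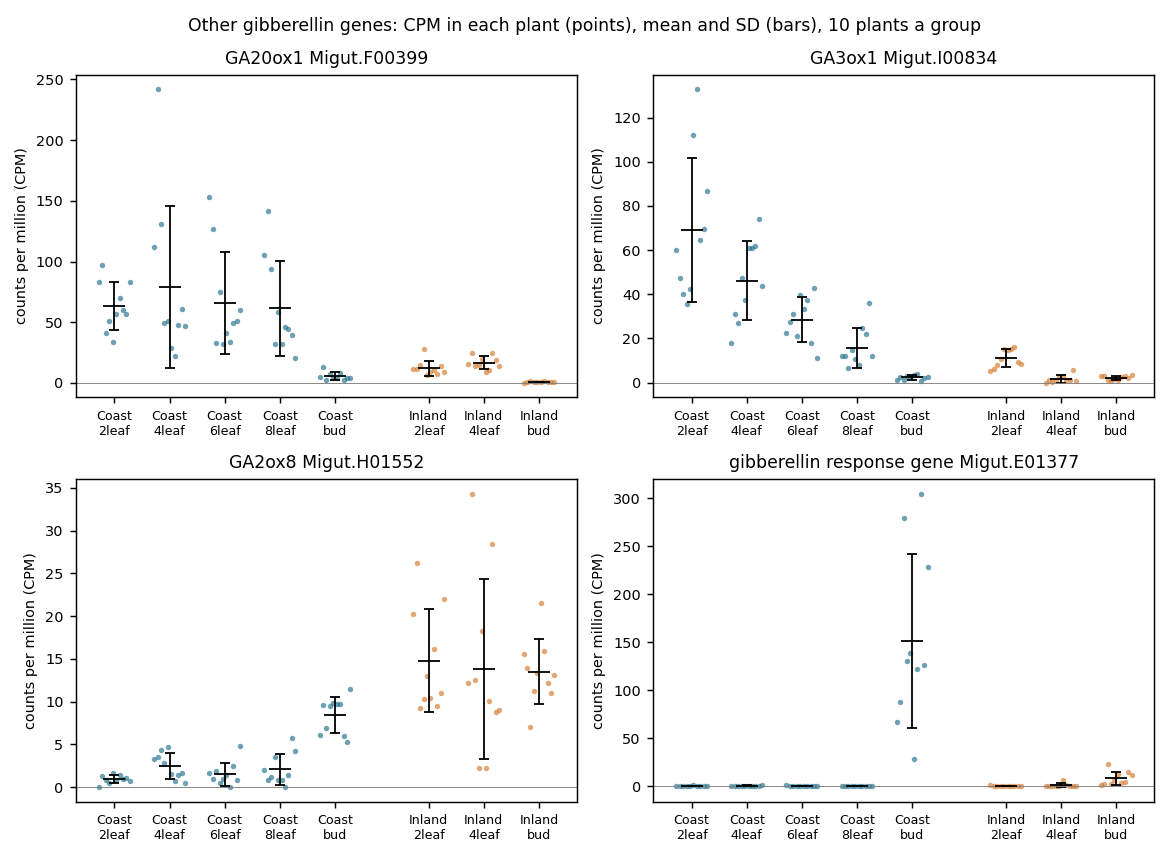
Level of the 4 other gibberellin genes in CPM (vertical axes, linear) in every plant, by group, coastal groups on the left and inland groups on the right. Points are plants, and bars the mean and SD of 10 plants. Means of GA20ox1 and GA3ox1 are highest in the coastal leaf groups, but GA3ox1 in Coast 8leaf overlaps Inland 2leaf. The mean of GA2ox8 is higher in the inland groups and in coastal buds than in coastal leaves, with a wide range in Inland 4leaf (2.21 to 34.3 CPM). Migut.E01377 is near 0 outside buds (mean 151.5 CPM in Coast bud, 8.26 CPM in Inland bud).

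The genes whose pattern over the 80 libraries was most like that of each member were found by Pearson's r of log2 CPM, among the 17136 genes tested. The libraries fall into 8 groups, so r reflects group differences, and no p-value is given. For GID1B they were Migut.F00779 (r = 0.919) and Migut.D00574 (r = 0.918), and for the DELLA gene Migut.H01913 (r = 0.907) and Migut.E00367 (r = 0.906). For PIF1 Migut.M00105 they were Migut.J01681 (r = 0.952) and Migut.E01772 (r = 0.949), and for PIF1 Migut.D00504 Migut.G00827 (r = 0.911) and Migut.N02894 (r = 0.899). No gene name is given for these identifiers in the sources used here.

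Among 82 tested genes that the study names, those nearest to GID1B were PLD (Migut.B01671, r = 0.890) and ILL3 (Migut.F00137, r = 0.889). Nearest to the DELLA gene were a DnaJ/Hsp40 chaperone (Migut.K00479, r = 0.859) and CSP41A (Migut.D00296, r = 0.853), a chloroplast RNA-binding protein. PIF1 Migut.D00504 was nearest to PPL1 (Migut.B00505, r = 0.793), a component of photosystem II, and to the chloroplast ribosomal gene S5 (Migut.H01481, r = 0.791). CSP41A, PPL1 and S5 are 3 of the 6 leaf markers. PIF1 Migut.M00105 was nearest to GA20ox1 (r = 0.878) and an auxin-responsive gene (Migut.F01341, r = 0.877).

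Plants of the same group were then used to ask whether the genes vary together apart from the group differences. Log2 CPM of 80 plants, less the group mean, were correlated for 18 pairs of genes, with permutation of plants within groups (100000 permutations, two-sided) and Benjamini-Hochberg adjustment over the 18. None of the 6 pairs of members passed. The closest were the 2 PIF1 genes (r = 0.30, rho = 0.26, permutation p = 0.013 and 0.028, adjusted p = 0.06 and 0.073), with a positive r in 6 of 8 groups. After subtracting the mean of each group within each pool this r was 0.42, and without the 2 plants farthest from the median 0.27. PIF1 Migut.M00105 and GA20ox1, close across groups, had r = 0.077 within groups (rho = 0.017, permutation p = 0.48 and 0.89, adjusted p = 0.67 and 0.89).

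Of the 12 pairs with a gibberellin enzyme, 3 passed. DELLA and GA3ox1 had r = 0.39 (rho = 0.39, permutation p = 0.00083 and 0.00089, adjusted p = 0.012 and 0.008), positive in 7 of 8 groups. DELLA and GA20ox1 had r = -0.34 (rho = -0.39, permutation p = 0.0017 and 0.00071, adjusted p = 0.012 and 0.008), negative in 8 of 8 groups. PIF1 Migut.D00504 and GA20ox1 had r = 0.34 (rho = 0.31, permutation p = 0.002 and 0.0066, adjusted p = 0.012 and 0.04). Without the 2 farthest plants these were 0.36, -0.37 and 0.36. Within group and pool they were 0.16, -0.072 and 0.19, so the relations did not hold at that size within pools. In the leaf libraries of pool 1, where the mean deviation of DELLA was -0.58, that of GA20ox1 was 0.80 and that of GA3ox1 was -0.54. PIF1 Migut.D00504 also moved with pool, with a mean deviation of 0.25 in pool 1 and its highest mean there in 5 of 6 leaf groups.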

How the data were processed

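The authors trimmed 3′-Tag-Seq reads with Cutadapt after FastQC, used BWA-MEM for alignment to the v2.0 genome of M. guttatus, filtered alignments with SAMtools and counted reads per gene, by strand, with HTSeq 0.6.1. The deposited values are those whole-number counts, without normalisation, for 28140 genes in 80 libraries. Of these genes 2988 had a total of 0, 6 lines were headings, and every column matched a sample (0 did not). Aligned reads of a near-identical gene copy could be split or lost at the counting step, so levels of the 2 PIF1 genes are those of the counts.

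Groups and plant numbers came from the sample labels and library pools from the column headings. The counts were tested with edgeR 4.0.16 in R 4.3.3 (filterByExpr on the design with minimum count 10 and minimum total 15, TMM, quasi-likelihood F test, Benjamini-Hochberg over all genes tested, threshold 0.05). The fit of both lines used 60 libraries, as the study's model did, that of the coastal line 50 and that of the last leaf stages 80. The study tested with voom and limma, which is an alternative here. Plants are separate plants of 1 line. The SE of a log2 fold change is its size divided by the square root of F, and 95% intervals are 1.96 SE to each side. CPM are counts per 1000000 scaled by TMM over the 80 libraries, and log2 CPM had a prior count of 2. The functions were tested on simulated data. Differences that involve 2leaf plants are given without a test for the members and the other gibberellin genes.

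The members and the gene lists were chosen with earlier results of these data known. Named genes are the 4 members, 4 other gibberellin genes and, for each member, the 2 most similar genes of all tested and the 2 of those the study names. The alternatives were voom with limma 3.58.1, DESeq2 1.42.0, other scalings and filters, library pool as a term, plant number as a replicate block, and all libraries in 1 fit. Fits without 4 libraries that stood apart in earlier results (Inland 4leaf plant 4, Coast 2leaf plant 9, Inland bud plants 6 and 7), and without Inland bud plant 6, were chosen after seeing the data. Likeness to the group (Pearson's r) does not single out this set. Counted from the lowest r, Inland 4leaf plant 4 stood at place 1 and Inland bud plant 6 at place 3. Inland bud plant 7 stood at place 9 and Coast 2leaf plant 9 at place 46. Coast bud plant 7, at place 2, was kept. The reference table matched 0 of the 28140 identifiers, so no coordinates or sequences are given. The raw reads were not used here.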

Additional observations from a re-analysis of the deposited data

Results flagged for a closer look

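There were 64 sets of 10 plants (8 genes in 8 groups). In each, the highest or lowest plant was set against the nearest of the others with Dixon's ratio. For normally distributed values it flags about 1 set in 20 by chance. CPM were compared on the linear scale, some from few counts, so that rate need not hold for these sets. The ratio picked out 10 plants, each of them the highest of its set. Among the members these were PIF1 Migut.M00105 in Coast 4leaf plant 7 (105.6 CPM, next 81.7) and in Coast bud plant 1 (27.77 CPM, next 23.63), and PIF1 Migut.D00504 in Coast 6leaf plant 9 (27.97 CPM, next 18.64). GA20ox1 stood out in Coast 4leaf plant 8 (241.9 CPM, next 131.1), in Coast bud plant 5 (13.44 CPM, next 7.957) and in Inland 2leaf plant 5 (28.32 CPM, next 14.88). GA3ox1 did so in Inland 4leaf plant 2 (5.566 CPM, from 14 counts) and GA2ox8 in Coast 6leaf plant 10 (4.781 CPM, from 24 counts). Migut.E01377 did so in Coast 6leaf plant 6 (1.145 CPM, from 5 counts) and in Inland 4leaf plant 4 (6.249 CPM, from 17 counts), the library least like its group.

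The step from 4leaf to bud differed between the lines for PIF1 Migut.D00504, with an interaction of -2.32 (edgeR, coastal minus inland, log2 scale). For the other gibberellin genes it was -4.87 for GA3ox1, 1.74 for GA2ox8 and 5.29 for Migut.E01377. The value of Migut.E01377 had an SE of 0.96, and its pool values ran from 2.01 to 8.26. At 4leaf this gene had only 15 counts in all in coastal plants and 30 in inland plants, 17 of them in plant 4.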

How the results depend on the processing

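For the 4 members, 40 tested differences were recomputed under up to 11 alternatives, which gave 414 values. With a filter given no groups the DELLA gene did not pass in the fit of 60 libraries, so its differences there have no value. Of these 406 kept their side of the threshold, 2 lost a call, 6 gained one and 0 reversed a call. The sign changed in 4 of the values, all for differences not called in the tests above. Of 26 calls, 24 held under every alternative run. With upper-quartile scaling GID1B from 4leaf to bud in inland plants was 0.27 (adjusted p = 0.111). With library size alone, PIF1 Migut.M00105 from 4leaf to 8leaf in coastal plants was -0.22 and no longer called. PIF1 Migut.D00504 at Coast 8leaf against Inland 4leaf was newly called with a filter given no groups (-0.37), pool as a term (-0.39) and without the 4 libraries (-0.40). The interaction of PIF1 Migut.M00105 from 4leaf to bud was newly called with pool as a term (-0.48), without the 4 libraries (-0.46) and without Inland bud plant 6 (-0.48). The cause of these changes was not tested.

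For the 4 other gibberellin genes the sign changed in 9 values, all for differences not called in the tests above. Of these 1 was called under its alternative: GA2ox8 from 4leaf to bud in inland plants was 0.67 with library size alone and -0.0038 with TMM. That scaling shifts the median gene to 0.72, and relative to the median gene GA2ox8 was at -0.048 with library size alone and -0.11 with TMM. Plant numbers did not pair the samples: the deviations of same-numbered plants correlated at 0.0011 on average over 150 pairs. With the plant number as a replicate block, GID1B at 4leaf was -2.09 and no call of a member changed. Genes called from 6leaf to 8leaf numbered 108 with edgeR and 174 with DESeq2. With library size alone 4115 were called from 4leaf to 6leaf (2350 with TMM) and 7261 from 4leaf to 8leaf (4419 with TMM), and without the 4 libraries the interaction from 2leaf to 4leaf called 1664 (1084 with all). Within group and pool, the correlation of the 2 PIF1 genes was 0.42 (0.30 within groups) and that of DELLA with PIF1 Migut.M00105 was 0.021 (0.20 within groups). The DELLA comparison in buds rests on 0 to 14 counts a library, and 1 accession per ecotype limits all comparisons.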
